A study of Mus musculus with 6 samples.

Results

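The mitosis and spindle genes are 45 genes that carry a cell from late G2 through cytokinesis: cyclins and the kinases of mitotic entry, the chromosomal passenger complex, the spindle checkpoint, kinetochore proteins, spindle motors and assembly factors, regulators of anaphase and the proteins that cut the cell in 2. They were chosen by a rule that lists names and sets no threshold on measured values, and all 45 had a row among the 53465 genes of the count table. All 45 also passed the filter on low counts, which left 11510 genes for testing, so none was lost. Total RNA was sequenced from 6 cell lines grown from mouse liver tumours, 3 with the genotype Myc_Utx (lines 2A, 2B and 2D) and 3 with the genotype Myc_p53 (lines 1, 2 and 3). Both genotypes share the C57BL/6 strain and a Myc transposon under the EF1a promoter, delivered to the livers of adult female mice by tail vein injection together with Cas9 and a guide RNA. The Myc_Utx lines came from tumours deficient for Kdm6a, which encodes the histone demethylase UTX, and the Myc_p53 lines, the study's controls, came from p53 knockout tumours. By the series' design text each line stems from the tumour of a different mouse, and by the study's methods such cultures were passaged until other cell types were no longer visible, and no group without an edited tumour suppressor was analysed here. Effects of losing Kdm6a in one group and p53 in the other therefore cannot be told apart.

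Mitotic genes are transcribed in a wave that begins in S phase and peaks in G2 and M. Much of that wave runs through short promoter elements: the CHR, bound by complexes built on the MuvB core, and CCAAT boxes, bound by NF-Y. In resting or arrested cells the MuvB core joins the DREAM complex, which holds the same promoters down, and in G2 it works with B-MYB and FOXM1, which switch them on. The products are then removed by the anaphase-promoting complex (APC/C), and bulk mRNA levels of these genes are commonly read as a measure of how many cells are cycling. In bulk RNA, however, fewer cycling cells and less RNA per cycling cell cannot be told apart.

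The promoters of the members show what the genes have in common that the choice of names did not use. RefSeq windows (GRCm38.p6, 250 bases before to 50 after each start) were at hand for 37 of the 45 members, all but Ccna2, Cdc25c, Foxm1, Aurkb, Incenp, Spc24, Tpx2 and Kif20a. A CHR, searched on both strands as TTTGAA, its reverse TTCAAA, or TTCGAA, was present in 27 of 37 members (73.0%), against 21.7% of the 27025 genes with a window. A CCAAT box, searched as CCAAT or ATTGG, was present in 26 of 37 (70.3%) against 41.1%, and both elements stood in 1 window in 23 of 37 (62.2%) against 8.61%. The letters of the 2 elements can share at most 1 base. In a stretch from 30 bases before to 50 after the start, chosen after the positions were seen, 26 of 37 members held a CHR (70.3%), against 4.79% of all genes. The following 150-base stretches (100 bases before and 50 after the start, 5′ to 3′, with CHR and CCAAT letters in capitals) are shown because they cover the 5 members that differed between the groups, with Cdc20 and Cdk1 as 2 members of the common layout.
Cdc20, chr4:118437294-118437443, minus strand: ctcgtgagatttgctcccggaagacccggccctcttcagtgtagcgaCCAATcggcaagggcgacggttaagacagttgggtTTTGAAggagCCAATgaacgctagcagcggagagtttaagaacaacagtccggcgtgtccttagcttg
Cdk1, chr10:69352863-69353012, minus strand: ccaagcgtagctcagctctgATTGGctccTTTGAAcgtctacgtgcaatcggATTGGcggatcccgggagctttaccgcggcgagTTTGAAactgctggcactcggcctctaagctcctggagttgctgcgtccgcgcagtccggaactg
Plk1, chr7:122159335-122159484, plus strand: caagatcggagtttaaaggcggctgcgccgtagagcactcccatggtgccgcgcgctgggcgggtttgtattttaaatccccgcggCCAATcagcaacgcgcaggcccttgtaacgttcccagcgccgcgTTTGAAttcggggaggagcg
Ect2, chr3:27153829-27153978, minus strand: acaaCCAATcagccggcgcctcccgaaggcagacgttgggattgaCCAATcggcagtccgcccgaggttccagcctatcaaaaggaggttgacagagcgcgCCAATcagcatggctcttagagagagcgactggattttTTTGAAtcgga
Gtse1, chr15:85859607-85859756, plus strand: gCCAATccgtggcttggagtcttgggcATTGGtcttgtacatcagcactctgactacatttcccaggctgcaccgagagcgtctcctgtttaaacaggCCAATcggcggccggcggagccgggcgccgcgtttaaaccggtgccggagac
Birc5, chr11:117849137-117849286, plus strand: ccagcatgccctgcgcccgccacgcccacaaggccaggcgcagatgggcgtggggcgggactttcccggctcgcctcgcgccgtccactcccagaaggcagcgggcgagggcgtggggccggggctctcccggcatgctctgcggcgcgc
Nusap1, chr2:119618198-119618347, plus strand: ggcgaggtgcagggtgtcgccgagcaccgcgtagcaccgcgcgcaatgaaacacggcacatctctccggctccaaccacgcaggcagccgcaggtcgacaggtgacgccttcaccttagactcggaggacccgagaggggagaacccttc
The stretches of Cdc20, Cdk1, Plk1 and Ect2 each held a CHR beside at least 1 CCAAT box. In Plk1 the CHR began at base 31 after the start, and in Ect2 at base 40. Gtse1 held 3 CCAAT boxes and no CHR in this stretch, and Birc5 and Nusap1 held neither element. The p53 decamer, the 10-letter element that p53 binds in pairs, was present in 5 of 37 members (13.5%) against 9.55% of all genes. The 5 were Gtse1, Birc5, Bub1b, Spc25 and Kif23, of which the first 2 passed the test described next. Bub1b, Spc25 and Kif23 did not pass, with log2 fold changes (Myc_Utx over Myc_p53) of -0.19, 0.19 and -0.33. In Birc5 the decamer began 228 bases before the start. In Gtse1 it began at base 10 of a second annotated start and is shown here in capitals:
Gtse1 second start, chr15:85859936-85859975, plus strand: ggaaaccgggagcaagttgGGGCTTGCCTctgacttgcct
Over the 27 members with a CHR the median log2 fold change between the groups was 0.06 and 2 passed that test. Over the 10 members without one it was 0.18 and 3 passed. Of all genes tested, 14.7% passed in either direction, and the members with and without a CHR were not tested against each other. No CHR spelling beyond the 3 given above was searched. The CHR, CCAAT and decamer matches are letters in a window, and binding was not measured.

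The comparison of the groups asks whether liver tumour cells lacking UTX carry a different mitotic programme from Myc-driven cells lacking p53. Taken as a whole, the members stood at nearly the same level in both. They took up 0.721%, 0.672% and 0.735% of all counts in lines 2A, 2B and 2D (0.709% ± 0.0333, SD, n = 3) and 0.682%, 0.712% and 0.714% in Myc_p53 lines 1, 2 and 3 (0.703% ± 0.0178, SD, n = 3), and the ranges overlap. Of the 45 members, 3 rose in Myc_Utx (Gtse1, Plk1 and Birc5) and 2 fell (Nusap1 and Ect2) by the quasi-likelihood F test of edgeR at a Benjamini-Hochberg adjusted p under 0.05 over all 11510 genes. Of all genes tested, 6.99% rose and 7.69% fell, so the members' shares of 6.67% and 4.44% are near or below the background. The members' median log2 fold change (log2 of Myc_Utx over Myc_p53) was 0.094, with an interquartile range from -0.06 to 0.31, while over all genes the median was -0.012 and the interquartile range -0.46 to 0.37. The members' median was 0.026 with libraries scaled by total counts alone, 0.049 with only genes of at least 10 counts in every line, and 0.16 with offsets for transcript length and GC content.

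The members moved within a narrow band. Their log2 fold changes had an SD of 0.41, against 1.13 over all genes, and only Gtse1 had an estimate beyond 2-fold. For 39 of 45 members the whole 95% interval of the fold change lay within 2-fold in either direction (86.7%, against 50.8% of all genes), which holds for 37 of the 40 members that did not pass the test. The 3 others are Cdc20, Spc24 and Cdca3, for which a difference of just over 2-fold is within the interval. In 31 members the estimate was above 0 (68.9%, against 49.2% of all genes) and in 14 below. Of the 31, those of Cdca8, Ndc80, Kif15, Kif2c, Pttg1 and Racgap1 were below 0 when libraries were scaled by total counts alone. The 3 Myc_Utx lines all lay above the 3 Myc_p53 lines for 13 members (28.9%), against 21.1% of all genes, and all below for 3 members, against 20.9%, while the groups overlapped for 29 members. The counts behind these values ran from 54 to 5628 per member and line, and the standard errors of the log2 fold changes from 0.10 to 0.35 with a median of 0.14. The values over all genes include genes with far lower counts, for which counting alone widens the spread. No genes of similar counts were compared, so the narrow band cannot be called particular to the members.

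**Figure D1:**
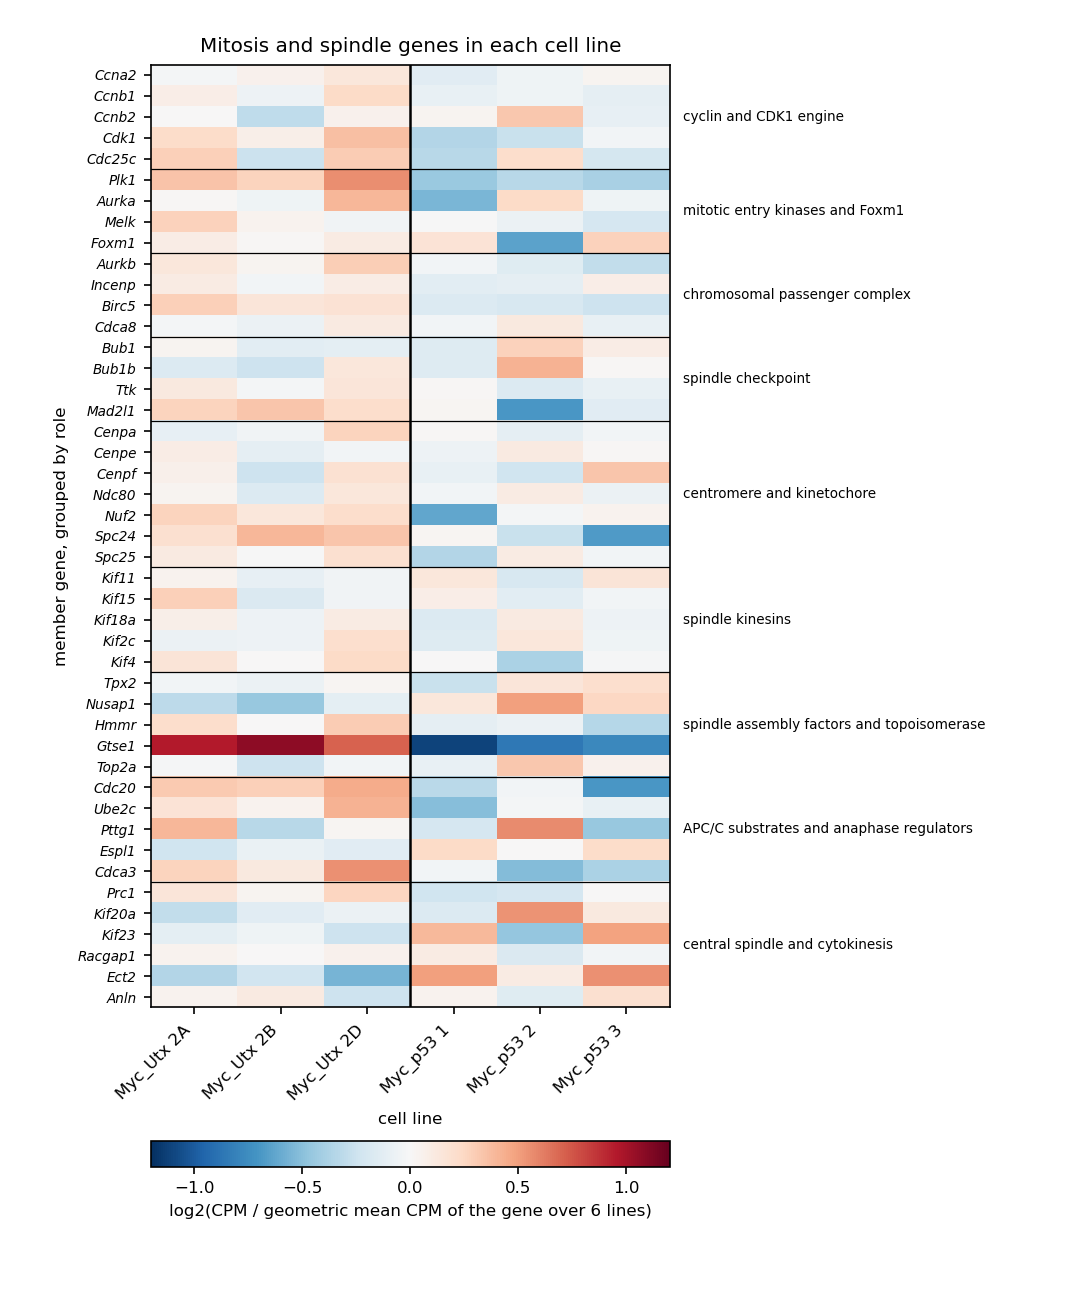
Level of each of the 45 members (rows, grouped by role) in each of the 6 cell lines (columns), as log2 of normalized CPM over the gene's geometric mean across the lines; red is above and blue below that mean. Gtse1 is the 1 row with a strong and uniform split between the groups, while most rows are pale and Myc_p53 line 2 departs from lines 1 and 3 in opposite directions in different genes.

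Gtse1, which encodes a microtubule-binding protein of G2 and mitosis that is also known to bind p53, showed the largest difference. The gene lies at chr15:85859707-85876572 on the plus strand of GRCm38 (ENSMUSG00000022385). Its level, in CPM (counts scaled to a common library size, with edgeR's TMM factors), was 168, 183 and 142 in lines 2A, 2B and 2D and 40.3, 48.0 and 50.8 in Myc_p53 lines 1, 2 and 3. Every Myc_Utx line was well above every Myc_p53 line. The log2 fold change was 1.83 ± 0.15 (SE, n = 3 and 3), a 3.55-fold higher level, with a 95% interval from 1.46 to 2.19 and an adjusted p of 0.00803 by edgeR, which ranked it at 17 among all genes by p. With any 1 line left out the log2 fold change stayed between 1.73 and 1.94, and the adjusted p passed in 5 of 6 cases but was 0.0614 without line 2A.

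Plk1, the kinase that drives mitotic entry, centrosome maturation and the start of cytokinesis, was the second member to rise. Its CPM was 207, 196 and 240 in lines 2A, 2B and 2D and 120, 129 and 124 in Myc_p53 lines 1, 2 and 3. The groups do not overlap, and the Myc_p53 lines lay within a tight range. The log2 fold change was 0.78 ± 0.12 (SE, n = 3 and 3; 1.72-fold), with an adjusted p of 0.0171 by edgeR. Leaving out 1 line gave values from 0.71 to 0.86 with adjusted p between 0.0218 and 0.0665, under the threshold only without Myc_p53 line 1 or line 2.

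Birc5, or survivin, the subunit that brings the chromosomal passenger complex to centromeres, rose least. Its CPM was 134, 122 and 124 in the Myc_Utx lines and 98.4, 96.4 and 93.0 in the Myc_p53 lines. Both groups were tight and did not overlap. The log2 fold change was 0.40 ± 0.10 (SE, n = 3 and 3; 1.32-fold), with an adjusted p of 0.0463 by edgeR. It lay between 0.37 and 0.44 whichever line was left out, but with 5 lines the adjusted p was never under 0.0618.

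Ect2, the exchange factor that activates RhoA at the cell equator to form the contractile ring, fell. Its CPM was 153, 166 and 132 in lines 2A, 2B and 2D and 273, 209 and 284 in Myc_p53 lines 1, 2 and 3. The lowest Myc_p53 line, line 2, was still above the highest Myc_Utx line. The log2 fold change was -0.77 ± 0.16 (SE, n = 3 and 3), a 1.70-fold higher level in Myc_p53, with an adjusted p of 0.0304 by edgeR. With 1 line left out it ran from -0.89 to -0.66, and the adjusted p (0.0200 to 0.110) passed only without Myc_p53 line 2.

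Nusap1, a protein that bundles and stabilises spindle microtubules near chromatin, also fell. Its CPM was 102, 92.5 and 117 in the Myc_Utx lines and 139, 178 and 150 in the Myc_p53 lines. The gap between the nearest lines, 2D and Myc_p53 line 1, was no larger than the range within either group. The log2 fold change was -0.59 ± 0.15 (SE, n = 3 and 3; 1.5-fold higher in Myc_p53), with an adjusted p of 0.0457 by edgeR. With 5 lines it ran from -0.67 to -0.48, with adjusted p from 0.0530 to 0.143.

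**Figure D2:**
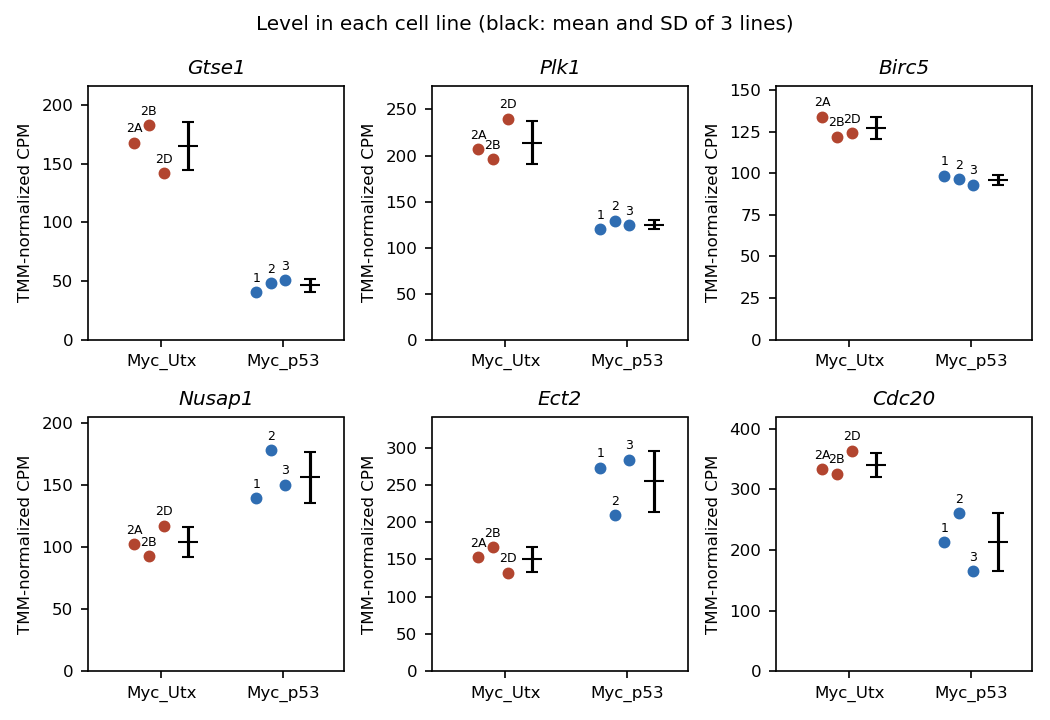
TMM-normalized CPM (vertical axes, from 0) of the 5 members with an adjusted p under 0.05, and of Cdc20, in each line; points are single lines named by their number, and the black marks are the mean and SD of 3 lines. Gtse1 lies between 142 and 183 in Myc_Utx and between 40.3 and 50.8 in Myc_p53, a far wider gap than in the other 5 panels.

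In the cyclin and CDK1 engine, the kinase complex that starts mitosis, 4 of 5 members had an estimate above 0 and none passed the test (median log2 fold change 0.17). Ccna2, the cyclin of S phase and G2, had a CPM of 312, 328 and 349 in the Myc_Utx lines and 288, 305 and 324 in the Myc_p53 lines, and the groups overlap. Cdk1, the kinase itself, came closest to the threshold, with 233, 210 and 257 against 157, 166 and 195, and these groups do not overlap. Its log2 fold change was 0.44 ± 0.13 (SE) with an adjusted p of 0.0702 by edgeR. The cyclins that bind it in mitosis gave smaller values of opposite sign, 0.17 ± 0.11 for Ccnb1 and -0.17 ± 0.16 for Ccnb2, and for Cdc25c, the phosphatase that activates Cdk1, the value was 0.23 ± 0.24.

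Among the kinases of mitotic entry and Foxm1, Plk1 alone of 4 passed. Aurka, the kinase of centrosomes and spindle poles, had a CPM of 130, 124 and 170 in Myc_Utx and 88.2, 151 and 124 in Myc_p53. The Myc_p53 lines alone spanned the level of 2A and 2B, and the log2 fold change was 0.22 ± 0.23. Foxm1, the transcription factor of the G2 programme, stood at 134, 127 and 135 in Myc_Utx and at 141, 80.8 and 152 in Myc_p53. Here line 2 of Myc_p53 stood apart from its group, and the log2 fold change of 0.08 ± 0.24 became -0.15 without that line. Melk, a kinase that follows the same wave, gave 0.19 ± 0.14.

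All 4 members of the chromosomal passenger complex, which corrects faulty attachments of chromosomes to the spindle, had an estimate above 0 (Cdca8 only with TMM scaling, among the 3 scalings tried), with Birc5 the only one to pass. The kinase subunit Aurkb was at 118, 110 and 132 in Myc_Utx and at 105, 96.9 and 87.4 in Myc_p53. These groups do not overlap, but the log2 fold change of 0.31 ± 0.13 had an adjusted p of 0.134 by edgeR. The scaffold subunit Incenp was at 224, 205 and 222 against 192, 194 and 221 (0.10 ± 0.11). The fourth subunit, Cdca8 (borealin), gave a log2 fold change of 0.0011 ± 0.11, with an interval from -0.27 to 0.27.

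In the spindle checkpoint, which holds anaphase until every kinetochore is attached, 2 of 4 members had an estimate above 0 and none passed (median 0.0037). Bub1b, the BubR1 component of the inhibitor of the APC/C, was at 214, 202 and 263 in Myc_Utx and at 215, 320 and 242 in Myc_p53. The groups overlap, with line 2 of Myc_p53 highest, and the log2 fold change was -0.19 ± 0.18. Mad2l1, its partner in that inhibitor, was at 108, 113 and 104 against 90.9, 55.2 and 81.7. In this case line 2 was the lowest of the 6, and the log2 fold change of 0.51 ± 0.20 had an adjusted p of 0.119 by edgeR. The kinases Bub1 and Ttk gave -0.15 ± 0.14 and 0.16 ± 0.12.

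At the centromere and kinetochore 5 of 7 members had an estimate above 0 and none passed (median 0.094). Cenpe, the kinesin that carries chromosomes to the metaphase plate, was at 236, 205 and 216 in Myc_Utx and at 212, 238 and 224 in Myc_p53, so that the lines of the groups interleave. The NDC80 complex, which grips the microtubule end, has 4 subunits among the members. Its 4 log2 fold changes were 0.58 ± 0.21 for Spc24, 0.38 ± 0.20 for Nuf2, 0.19 ± 0.16 for Spc25 and 0.0047 ± 0.14 for Ndc80. Spc24 was at 46.1, 53.4 and 50.8 against 41.2, 33.7 and 25.2, without overlap, and its adjusted p was 0.101 by edgeR. Nuf2 also separated the groups, but by less, and line 1 of Myc_p53 (43.9) lay far below lines 2 and 3 (66.7 and 69.6). The centromeric histone Cenpa and the large kinetochore protein Cenpf gave 0.09 ± 0.13 and -0.01 ± 0.19.

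The spindle kinesins were the most even of the 9 roles in the fit as reported. Their 5 log2 fold changes lay between -0.07 and 0.25, none passed, and every one of the 5 had overlapping groups, as did 6674 of all 11510 genes. With the length and GC offsets the 5 ran from -0.07 to 0.38, with a median of 0.25. The chromosomal passenger complex, from 0.07 to 0.39, then spanned less. Kif11, the motor that pushes spindle poles apart, was at 240, 217 and 226 in Myc_Utx and at 256, 204 and 259 in Myc_p53. Its interval ran from -0.38 to 0.23. Kif18a and Kif2c, which shorten or restrain microtubules at kinetochores, gave 0.07 ± 0.14 and 0.04 ± 0.14, Kif15, a second motor that spreads the poles, 0.06 ± 0.15, and the chromatin-bound Kif4 0.25 ± 0.15.

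Among the spindle assembly factors and the topoisomerase, Gtse1 rose, Nusap1 fell and the other 3 did not pass. Top2a, which untangles sister chromatids and was the most abundant member in CPM, was at 767, 651 and 755 in Myc_Utx and at 728, 969 and 802 in Myc_p53. The groups overlap at the low end of Myc_p53, and the log2 fold change was -0.20 ± 0.14. Hmmr, a microtubule-binding protein of the spindle pole, was at 197, 171 and 211 against 158, 162 and 134, with no overlap and an adjusted p of 0.113 by edgeR (0.35 ± 0.13). Tpx2, the activator of Aurka on the spindle, gave -0.07 ± 0.14.

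Substrates of the APC/C and regulators of anaphase had the highest median of the 9 roles, 0.41, yet none passed. The groups separated upward for 3 of 5 members, against 21.1% of all genes. With the length and GC offsets the median was 0.32 and 3 of 5 estimates were above 0, where 4 were without them. Cdc20, the subunit through which the APC/C finds securin and cyclin B, had a CPM of 333, 326 and 364 in Myc_Utx and 213, 261 and 165 in Myc_p53. The groups do not overlap, and the Myc_p53 lines spread more widely than the Myc_Utx lines. The log2 fold change was 0.68 ± 0.18 (SE, n = 3 and 3) with an adjusted p of 0.0502 by edgeR, and 0.0248 without Myc_p53 line 2. Cdca3, which triggers the destruction of the mitotic inhibitor kinase WEE1, was at 112, 101 and 136 against 90.7, 64.9 and 71.7 (0.62 ± 0.18, adjusted p 0.0630 by edgeR). Ube2c, the ubiquitin-conjugating enzyme of the APC/C, was at 213, 195 and 253 against 133, 187 and 179 (0.41 ± 0.17, adjusted p 0.147 by edgeR). Espl1, the protease separase that cuts cohesin at anaphase, lay on the other side, with 126, 141 and 135 against 174, 149 and 173 (-0.30 ± 0.11, adjusted p 0.112 by edgeR). Its inhibitor Pttg1, or securin, was the most variable member: it ranged from 10.1 to 16.8 in Myc_Utx and from 9.27 to 18.9 in Myc_p53, and its interval, from -0.82 to 0.87, was the widest of all 45.

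In the central spindle and cytokinesis group 4 of 6 members had an estimate below 0, with Ect2 the only one to pass (median -0.19). With the length and GC offsets, 3 of 6 were below 0 and the median was 0.016. Anln, which links the contractile ring to the membrane, was at 245, 256 and 200 in Myc_Utx and at 245, 214 and 271 in Myc_p53, with overlap (-0.06 ± 0.14). Kif23 and Racgap1 together form centralspindlin, the complex that recruits Ect2. Kif23 was at 127, 133 and 116 in Myc_Utx and at 181, 100 and 193 in Myc_p53, so lines 1 and 3 lay above all Myc_Utx lines and line 2 below them. Its log2 fold change was -0.33 ± 0.25, and it passed the test only without line 2. Racgap1 was at 239, 233 and 240 against 248, 206 and 226 (0.07 ± 0.11). Kif20a, the motor that carries the passenger complex to the midzone, was at 175, 195 and 204 against 191, 312 and 232. Line 2 was again at one extreme (-0.35 ± 0.19, adjusted p 0.236 by edgeR). Prc1, the bundler of midzone microtubules, separated the groups upward, at 153, 142 and 166 against 117, 120 and 139, with an adjusted p of 0.141 by edgeR (0.29 ± 0.12).

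**Figure D3:**
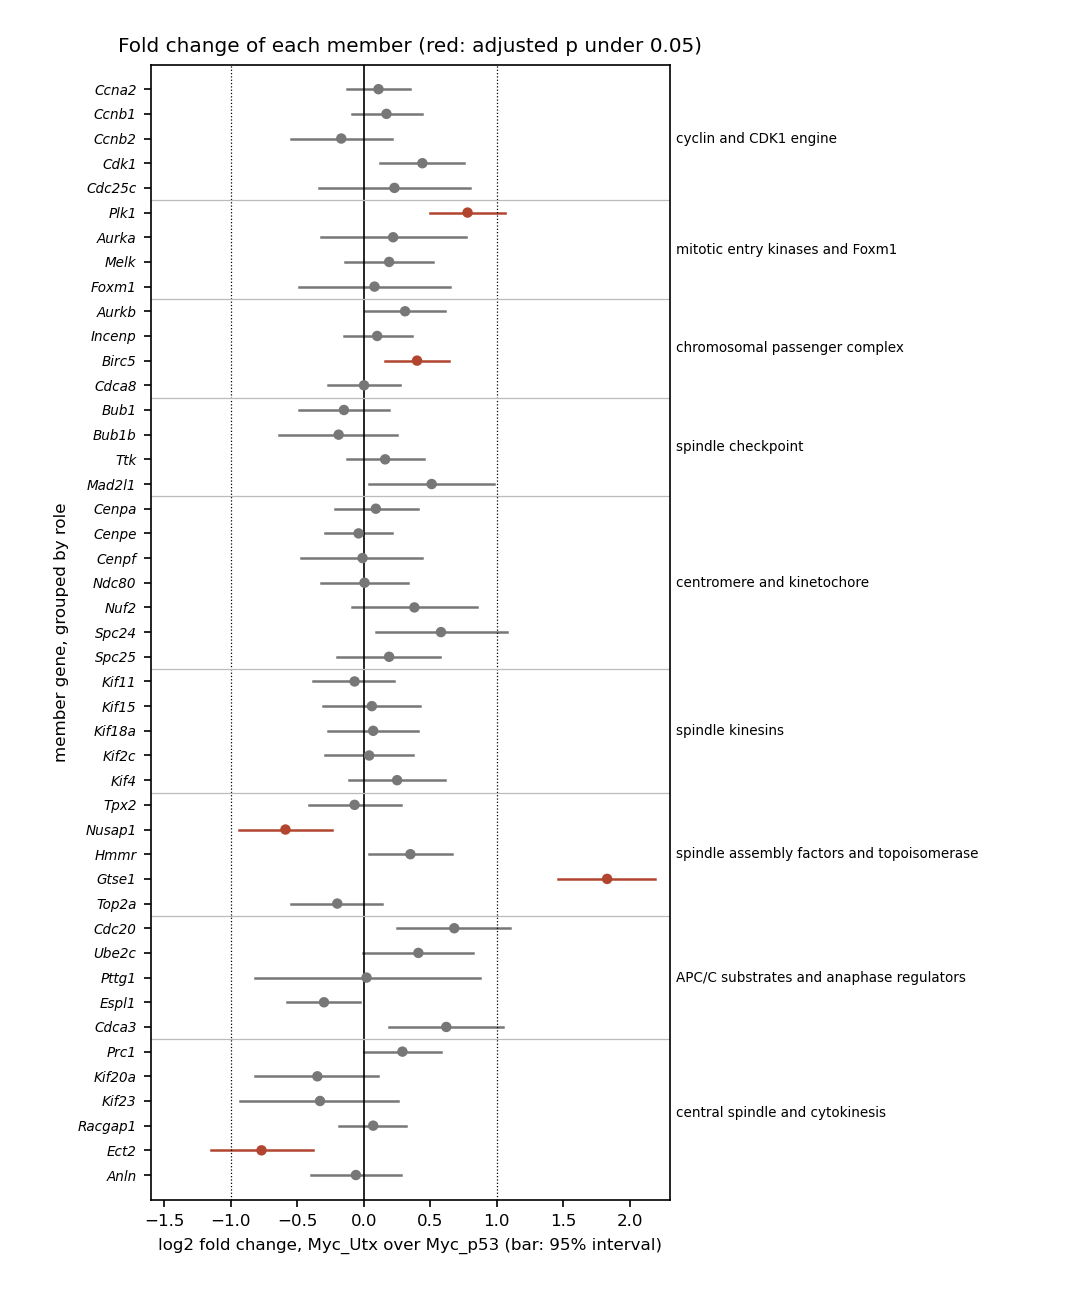
Log2 fold change of Myc_Utx over Myc_p53 (horizontal axis) with its 95% interval for each of the 45 members, grouped by role; red marks an adjusted p under 0.05 and dotted lines mark a 2-fold difference. For 39 of the 45 members the interval lies inside the dotted lines, and Gtse1 alone lies wholly outside them.

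Levels of different genes were compared per kb of the deposited transcript length. For most members where it could be checked, that length equals all annotated exons merged, which can exceed any single transcript. Genes with many isoforms may therefore rank too low. On this scale Cdc20 had the highest mean level at 148 CPM per kb. Top2a followed at 86.4, Ccnb2 at 79.6, Ccna2 at 77.8 and Plk1 at 77.0. Neighbours among the last 3 differ by less than the spread between lines. The lowest were Kif15 at 8.50, Pttg1 at 6.58 and Kif18a at 4.20. The 5 members that passed the test were spread through the middle and upper part of this order, with 77.0 for Plk1, 38.7 for Gtse1, 37.7 for Ect2, 32.7 for Birc5 and 32 for Nusap1.

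Variation between lines of 1 genotype was below the median over all genes, which were not matched for counts, and differed in form between the groups. The median coefficient of variation over the members was 8.82% in Myc_Utx and 12.9% in Myc_p53, and over all genes tested it was 13.9% and 19.4%. The highest line exceeded the lowest by more than 1.5 times for 1 member in Myc_Utx (Pttg1) and for 9 in Myc_p53. Within Myc_Utx the lines kept an order: 2B was the lowest of the 3 for 33 of 45 members, against 30.7% of all genes, and 2D the highest for 28, against 36.8%. The exceptions include both Gtse1 and Ect2, for which 2D was the lowest and 2B the highest. Within Myc_p53 line 1 was lowest for 20 of 45 members (33.8% of all genes) and line 2 highest for 20 (37.2%), while line 2 was also lowest for 14 (37.3%), among them Foxm1, Kif23 and Mad2l1.

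The other genes of mitosis and the cell cycle, taken from 6 lists, gave a similar picture with a few larger differences. Of 201 genes tested, 25 passed (12.4%), 17 higher (8.46%, against 6.99% of all genes) and 8 lower (3.98%, against 7.69%). With the length and GC offsets 2 of the lists' genes passed as lower. In the further centromere and kinetochore genes 2 of 39 rose (5.13%, against 6.99% of all genes), Cenpm and the checkpoint protein Bub3, and none fell (median 0.018). Cenpm, a subunit of the constitutive centromere network, was at 21.7, 18.5 and 31.2 CPM in Myc_Utx and at 7.90, 7.41 and 6.84 in Myc_p53 (log2 fold change 1.69 ± 0.26, adjusted p 0.0183 by edgeR). In the further spindle, centrosome and cytokinesis genes 4 of 39 rose and 4 fell (10.3% each, against 6.99% and 7.69% of all genes, median 0.081). Ckap2, a spindle microtubule protein, rose by a log2 fold change of 1.42 ± 0.11, from 61.3, 57.6 and 59.6 CPM in Myc_p53 to 176, 154 and 149 in Myc_Utx (adjusted p 0.00723 by edgeR). Of those that fell, Stil, needed to build centrioles, had a log2 fold change of -0.91 ± 0.14, and Cep192, a scaffold of the pericentriolar material, -0.83 ± 0.13. Of the APC/C subunits and regulators 1 of 17 rose (5.88%, against 6.99% of all genes) and 2 fell (11.8%, against 7.69%). Ube2s, the enzyme that extends ubiquitin chains, rose (1.05 ± 0.17). The scaffold subunit Anapc1 (-0.55 ± 0.13) and the catalytic subunit Anapc11 (-0.80 ± 0.20) fell. Neither of the 2 that fell passed with the length and GC offsets, where Anapc1 was at -0.18 (adjusted p 0.313 by edgeR) and Anapc11 at -0.71 (0.0721). Of 22 condensin and cohesin genes none passed in either direction by edgeR with TMM scaling. An unadjusted p under 0.05 by edgeR was found for 4 of the 22, a smaller share than the 4026 of all 11510 genes. With the length and GC offsets edgeR called 1 higher, with total counts alone 1 lower, and DESeq2 called 1 higher and 2 lower. Mki67, the proliferation antigen Ki-67 that coats mitotic chromosomes, belongs to that list. It was at 872, 732 and 814 CPM against 649, 445 and 561, without overlap (0.55 ± 0.16, adjusted p 0.0662 by edgeR). Mki67 passed with the offsets (0.81, adjusted p 0.0353 by edgeR) and by DESeq2 (0.53, adjusted p 0.0177).

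Regulators of the wave and genes of S phase formed separate lists. Of 29 genes of the DREAM, MuvB and E2F complexes and the CDK inhibitors, 3 rose (10.3%) and 1 fell (3.45%), with a median of 0.059. Of all genes, 6.99% rose and 7.69% fell. Mybl2, which encodes the B-MYB partner of MuvB, and E2f1 gave -0.03 ± 0.13 and -0.04 ± 0.24. Cdkn1a, the CDK inhibitor p21 and a known transcriptional target of p53, was at 301, 300 and 243 CPM in Myc_Utx and at 12.8, 5.38 and 26.4 in Myc_p53 (4.23 ± 0.54, adjusted p 0.0156 by edgeR). Every Myc_Utx line thus had many times the Cdkn1a level of any Myc_p53 line, while the members as a group differed little. Cdkn2c, the INK4 inhibitor p18, rose by a log2 fold change of 1.07 ± 0.17. Of 55 DNA replication genes 7 rose (12.7%, against 6.99% of all genes) and 1 fell (1.82%, against 7.69%). Among the 55, 50 had an estimate above 0 (90.9%, against 49.2% of all genes). With the length and GC offsets 49 did. These genes were measured in the same libraries and are not independent observations. Their median of 0.31 was above that of the members (0.094). They took up 0.643% ± 0.0306 of all counts in Myc_Utx and 0.520% ± 0.0228 in Myc_p53 (SD, n = 3 each). Rrm2, the small subunit of ribonucleotide reductase, led with a log2 fold change of 1.19 ± 0.11 (adjusted p 0.0103 by edgeR), while Pcna, the sliding clamp, gave 0.29 ± 0.09 (adjusted p 0.0712). The list medians were not tested against each other. A CHR was present in the promoter windows of 9 of 45 replication genes (20.0%), near the share of all genes.

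**Figure D4:**
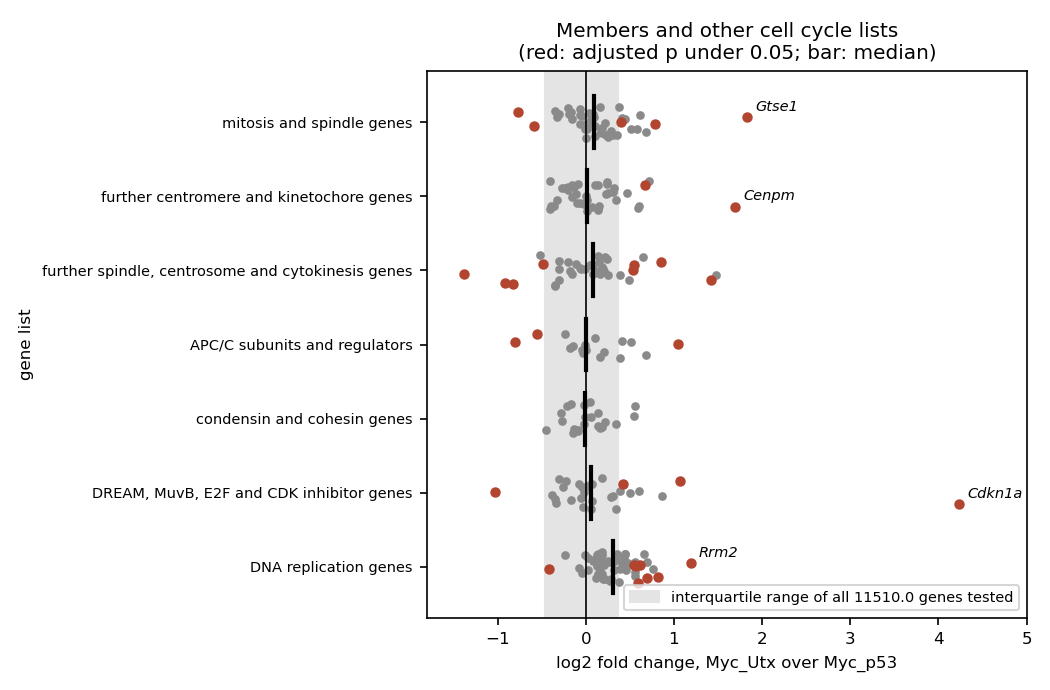
Log2 fold change of Myc_Utx over Myc_p53 (horizontal axis) for the members and for 6 other cell cycle lists; each point is a gene, red marks an adjusted p under 0.05, the black bar is the list's median, the points are spread vertically at random and the grey band is the interquartile range of all 11510 genes tested. Medians lie near 0 except for the DNA replication genes at 0.31, and Cdkn1a stands far to the right at 4.23.

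The deposited transcript length, mostly a merged exon length as stated above, moved with the fold change in these libraries, among the members as among all genes. Across the 45 members Spearman's rho between transcript length and log2 fold change was -0.33, and across all 11510 genes it was -0.25, as descriptions over genes that share the same 6 libraries. The 13 members shorter than 3000 bases had a median log2 fold change of 0.31, with 12 above 0, and the 32 longer members a median of 0.06, with 19 above 0. With offsets for length and GC content in each line, rho was 0.10 over the members and -0.01 over all genes, and the medians were 0.25 and 0.14. The offsets left Gtse1 at 1.75 (adjusted p 0.0101 by edgeR), Plk1 at 0.65 (0.0249), Ect2 at -0.75 (0.0327) and Nusap1 at -0.64 (0.0452), while Birc5, at 0.39, no longer passed (0.0603). Under the offsets 2 members rose and 2 fell, where 5.86% of all genes rose and 5.07% fell. By DESeq2, in contrast, 6 members rose (Gtse1, Plk1, Birc5, Cdc20, Cdca3 and Cdk1) and 2 fell (Ect2 and Nusap1), where 11.0% of all genes rose and 13.2% fell.

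**Figure D5:**
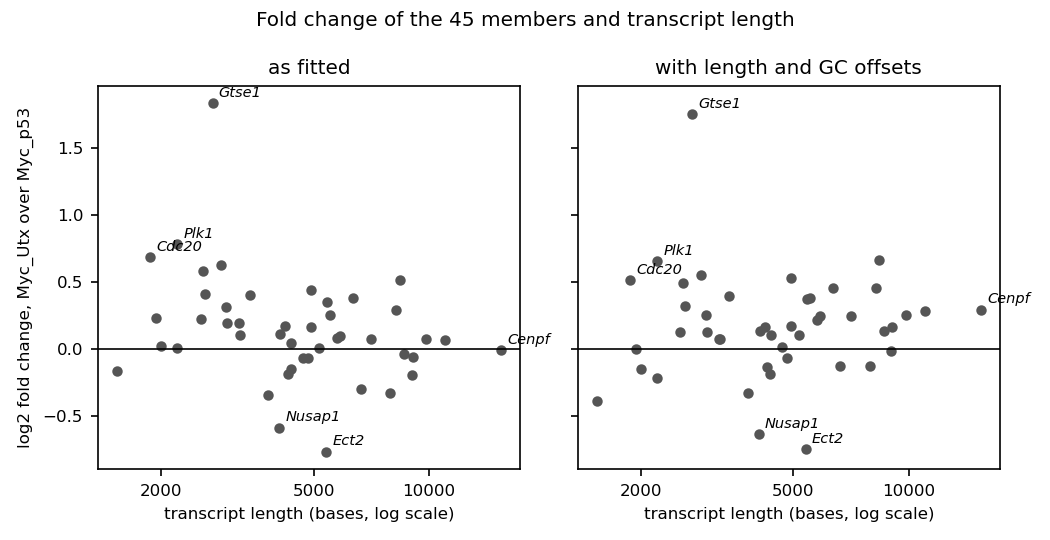
Log2 fold change of Myc_Utx over Myc_p53 (vertical axis) against the deposited transcript length in bases (horizontal log axis) for the 45 members. The left panel is as fitted and the right panel has offsets for length and GC content. In the left panel the members under 3000 bases lie mostly above 0 and rho is -0.33; in the right panel rho is 0.10 and the position of Gtse1, Plk1, Ect2 and Nusap1 is little changed.

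Some facts of the libraries bear on these values. Total counts ran from 4656103 to 5473042 in Myc_Utx and from 5370608 to 6937497 in Myc_p53. The labelled deficiency is not visible in the mRNA of Kdm6a, whose CPM was 39.7, 45.7 and 49.0 in Myc_Utx and 69.5, 64.5 and 42.5 in Myc_p53 (-0.39 ± 0.22, adjusted p 0.243 by edgeR). The groups overlap there, and gene counts cannot show a small edit in the reading frame. For cell lines from such tumours the paper reports indels in Kdm6a and, by western blot, loss of its protein. The 11 hepatocyte markers in the table summed to 28.5 to 94.9 CPM in Myc_Utx and 71.2 to 1242.9 in Myc_p53. The highest sum, in Myc_p53 line 1, was mostly Krt8 (717) and Krt18 (472). Krt18 was at 0 to 47.9 CPM in Myc_Utx and 20.0 to 472 in Myc_p53, and Krt8 at 0 to 37.4 and 15.4 to 717. Of the 11, 2 were lower in every Myc_Utx line (against 20.9% of all genes tested) and 1 higher (against 21.1%). Alb had at most 26 counts in any line, and Afp was at 3.16 CPM or less. Of 16 macrophage markers, 11 were lower in every Myc_Utx line, against 20.9% of all genes tested. Some of these, such as Adgre1, Tyrobp and Ptprc, had too few counts to pass the filter. The 16 markers summed to 38.1 to 56.0 CPM in Myc_Utx and 62.6 to 140 in Myc_p53. Cd14 was higher in every Myc_Utx line, at 53.2, 34.3 and 32.3 CPM against 19.3, 18.9 and 21.7, and made up most of the Myc_Utx sum. Clec4f was at 0 in every line. Csf1r had 0.187 CPM or less in Myc_Utx and 7.23 to 40.9 in Myc_p53, while Ptprc stayed at 0.428 or less in every line. Fibroblast and stellate cell markers summed to 1954.3 to 2735.3 CPM in Myc_Utx and to 42.2 to 3517.3 in Myc_p53, most of it Col3a1 in the Myc_Utx lines (1730.5 to 2558.2) and in Myc_p53 line 2 (2721.0, against 10.3 and 73.9 in lines 1 and 3). Col1a1 ran from 4.01 to 35.3 in Myc_Utx and from 3.32 to 236 in Myc_p53. The cholangiocyte list summed to 554 to 1462.7 against 168 to 1563.6, and the fetal liver list to 15.6 to 113 against 64.1 to 339. Endothelial markers summed to at most 1.42 CPM (Pecam1 0.316 or less) and lymphocyte markers to at most 0.185. The part of these marker differences in the members' values was not tested. Exons of 11 members overlap a gene on the opposite strand, most for Kif20a (29.3%, with Cdc23), Ube2c (22.8%) and Kif4 (15.1%), and the strand setting of the counting was not stated, so reads of such pairs may be shared. Pseudogene copies of Ccnb1 and Ccnb2 held at most 13 counts in any line.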

How the data were processed

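RNA was sequenced from 3 Myc_Utx and 3 Myc_p53 cell lines. Unnormalized counts for each Ensembl gene were deposited by the authors, with a transcript length. For most members where it could be checked, this equals the merged length of all annotated exons. The submitters' processing notes name Trimmomatic 0.36, STAR 2.5.3a, featureCounts 1.6.3, DESeq2 1.20.0 and GRCm38 (mm10), whereas the paper's methods name HTSeq, a human build and lines with Mll3 guides; groups follow the labels. The strand setting was not stated.

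Group differences were tested with edgeR 4.0.16 under R 4.3.3 (filterByExpr with a minimum of 10, TMM, quasi-likelihood F test, Benjamini-Hochberg over 11510 genes). Each SE was taken as |log2 fold change| over √F. The common dispersion gives a biological coefficient of variation of 33.4%. Tests compare 3 lines with 3, each from a different mouse by the series' design text. Length and GC offsets came from robust fits (MASS 7.3.60.0.1) with splines of 5 degrees of freedom, and DESeq2 1.42.0 was run on the same genes. The procedure was checked on simulated data.

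The members, their roles, the gene lists and the marker lists were chosen with earlier results of these data known. Levels in each line, log2 fold change, SE and adjusted p were given for members with an adjusted p under 0.05 and for the 3 largest log2 fold changes in each direction. For the member of each role with the highest count, the level in each line was given. Values of further members, chosen after these had been seen, complete each role. From each list at most 5 genes past the threshold were named, and Cdkn1a, Mki67, Mybl2, E2f1 and Pcna whatever their values. Knstrm had no row under that name and Cdkn1c did not pass the filter, which left 201 of 203 listed genes. Promoter sequences are those of RefSeq.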

Additional observations from a re-analysis of the deposited data

How the results depend on the processing

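Each value was recomputed without the low-count filter, with at least 10 counts demanded in every line, with size factors of DESeq2, scaled by total counts alone, under the length and GC offsets, with DESeq2 itself, and with each line left out. No paired analysis was possible because no line number of one genotype recurs in the other. With 1 line left out, a group of 2 remains and its spread is taken with that of the other lines.

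Of all genes, 805 rose and 885 fell. DESeq2 called 1268 and 1514, the offsets left 584 that fell, and leaving out 1 line gave 3 to 836 and 1 to 1118. Of the members, 3 rose and 2 fell. DESeq2 called 6 higher, without the filter 1 fell, and leaving out 1 line gave 0 to 3 and 0 to 2: none without line 2A, only Gtse1 without 2B, 2D or Myc_p53 line 3, Gtse1 and Plk1 without Myc_p53 line 1, and Cdc20, Gtse1 and Plk1 higher with Ect2 and Kif23 lower without Myc_p53 line 2. Birc5 passed only in the fit as reported and with DESeq2. The median of the members ran from 0.061 to 0.16 with a line left out, and was 0.026 with total counts and 0.049 with the minimum of 10 set for every line. Members separating the groups were 13 higher and 3 lower; with total counts only 5 were lower, and with a line left out, when separation is easier, 16 to 19 and 3 to 7. In the 6 lists 17 rose and 8 fell. DESeq2 called 26 higher, 4 fell without the filter and 2 with the offsets, and leaving out 1 line gave 0 to 18 and 0 to 6. Kdm6a ran from -0.59 to -0.26 with a line left out and was -0.24 with the offsets. Without the filter the median of all genes was -0.23.

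No value that passed the test changed sign. Those that did had these log2 fold changes. At least 10 counts in every line gave -0.042 for Cdca8, -0.039 for Ndc80, -0.0040 for Kif2c and -0.016 for Pttg1. DESeq2 size factors gave -0.018 for Cdca8 and -0.014 for Ndc80, and DESeq2 -0.017 and -0.014. Total counts gave -0.064 for Cdca8, -0.061 for Ndc80, -0.0053 for Kif15, -0.025 for Kif2c, -0.039 for Pttg1 and -6.0e-04 for Racgap1. No filter gave 0.017 for Cenpf. The offsets gave -0.0021 for Cdc25c, 0.13 for Cenpe, 0.29 for Cenpf, -0.22 for Ndc80, 0.010 for Tpx2, -0.15 for Pttg1, 0.16 for Anln and 0.041 for Mybl2. With 1 line left out the ranges were -0.15 to 0.24 for Foxm1, -0.047 to 0.065 for Cdca8, -0.011 to 0.18 for Cenpa, -0.087 to 0.023 for Cenpe, -0.12 to 0.17 for Cenpf, -0.044 to 0.1 for Ndc80, -0.064 to 0.17 for Kif15, -0.038 to 0.13 for Kif2c, -0.21 to 0.02 for Tpx2, -0.18 to 0.39 for Pttg1, -0.14 to 0.06 for Anln, -0.092 to 0.058 for Mybl2 and -0.25 to 0.14 for E2f1. The cause was not tested.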

Other observations

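Genes annotated to cell division in the deposited table that are neither members nor in the 6 lists were looked at after the other results were known. Of 208 such genes tested, 10 rose (4.81%, against 6.99% of all genes) and 15 fell (7.21%, against 7.69%), and their median log2 fold change was 0.0026. Psrc1, which encodes a microtubule-binding protein of the spindle, was at 188, 198 and 142 CPM in Myc_Utx and at 16, 18.3 and 13.8 in Myc_p53. Its log2 fold change of 3.46 ± 0.19 (adjusted p 0.00511 by edgeR) was above that of Gtse1 and passed whichever line was left out. Ccng1, cyclin G1, was at 1025.9, 829 and 542 CPM against 55.9, 68.6 and 59.9 (3.70 ± 0.26, adjusted p 0.00511 by edgeR), and Ccne1, the cyclin of the step from G1 to S phase, gave 1.65 ± 0.33 (adjusted p 0.0276 by edgeR). Ran and Rcc1, the GTPase of spindle assembly around chromatin and its exchange factor, gave 0.63 ± 0.10 and 0.76 ± 0.14. On the lower side were Mastl, the Greatwall kinase that keeps mitotic phosphorylation up (-0.78 ± 0.13), and Nedd9, a scaffold that activates Aurka (-1.45 ± 0.25). Both passed with edgeR, at adjusted p of 0.0189 and 0.0206, and were lower in every Myc_Utx line.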
